A study of Rattus norvegicus with 6 samples.

Results

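The transcripts described here are those of the trypsinogens (Prss1, Prss2, Prss3, Try4, Try5 and Try10), of chymotrypsin C (Ctrc) and of the trypsin inhibitor Spink1 in rat pancreas. They were taken from the array as the probes whose RefSeq accession belongs to one of these 8 symbols. Probes were matched to 5 of the 8 names, Prss2, Prss3, Try10, Ctrc and Spink1, with 1 probe and 1 spot each. No probe was matched under the names Prss1, Try4 or Try5. Try4 is an older name of the gene now called Prss3, which had a probe. The RNA levels of Prss1 and Try5 were not analysed here. All 5 probes were well above background on all 6 scans and passed the filter on dim probes, so that 5 of the 8729 genes tested belonged to this set.

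The AP group was pancreas of male rats aged 6 weeks with acute pancreatitis, induced by injecting 4% sodium taurocholate, a bile salt, at 1 mL/kg against the flow of the pancreatic duct, and killed after 9 h. The control group was pancreas of male rats of the same age, and the labels do not say whether these rats had a sham operation. RNA was labelled with Cy3 on 1-colour Agilent arrays, and 3 scans were deposited per group. In each group the third scan was a second scan of the array of the second: how far single spots departed from their probe's average correlated with r = 0.953 for the AP pair and r = 0.952 for the control pair, across 1662 spots that are not independent replicates, against 0.209 to 0.704 for the other 13 pairs. The 2 scans of such an array were averaged, which left 2 arrays per group.

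Trypsinogens are made in acinar cells, stored as inactive precursors in zymogen granules and normally activated by enteropeptidase in the gut. Once some trypsin is active it cleaves further trypsinogen, and activation inside the pancreas, to which the lysosomal protease cathepsin B is known to contribute, is a classical early event of experimental pancreatitis. Chymotrypsin C degrades trypsinogen and trypsin in humans, while Spink1 binds and blocks active trypsin. The arrays measured RNA and not the activation of the proteins.

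The promoter windows of 1 trypsinogen, of Ctrc and of Spink1 are shown because the 3 genes stand for the protease, its degrading enzyme and its inhibitor, and differed in their values on these arrays. Each window holds 250 bases before and 50 bases from the annotated start, 5′ to 3′ in the direction of the gene, from RefSeq on assembly GRCr8. Capitals mark matches on either strand to CACCTG, to TTTCCC and to TATAAA. An E-box such as CACCTG next to a TTTCCC box is the known target of the acinar complex PTF1, and TATAAA is the TATA box.
Prss2, chr4:71244714-71245013, plus strand: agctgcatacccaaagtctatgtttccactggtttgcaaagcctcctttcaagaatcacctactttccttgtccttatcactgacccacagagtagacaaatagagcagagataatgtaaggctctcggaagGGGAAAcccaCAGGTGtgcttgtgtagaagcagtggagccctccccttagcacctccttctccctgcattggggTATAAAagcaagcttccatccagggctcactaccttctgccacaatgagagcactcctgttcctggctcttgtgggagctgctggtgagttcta
Ctrc, chr5:159439508-159439807, minus strand: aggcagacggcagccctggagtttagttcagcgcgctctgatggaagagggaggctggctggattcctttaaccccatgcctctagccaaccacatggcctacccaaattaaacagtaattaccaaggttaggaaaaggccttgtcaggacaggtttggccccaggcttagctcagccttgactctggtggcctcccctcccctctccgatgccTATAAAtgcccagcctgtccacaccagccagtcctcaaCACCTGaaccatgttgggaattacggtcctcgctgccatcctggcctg
Spink1, chr18:36133547-36133846, minus strand: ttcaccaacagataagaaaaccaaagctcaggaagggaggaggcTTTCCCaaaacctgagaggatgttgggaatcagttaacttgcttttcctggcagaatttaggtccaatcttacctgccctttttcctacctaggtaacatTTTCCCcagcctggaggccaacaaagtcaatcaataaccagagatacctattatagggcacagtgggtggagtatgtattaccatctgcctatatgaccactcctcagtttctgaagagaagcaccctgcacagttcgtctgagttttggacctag
In Prss2 the TTTCCC match, on the opposite strand, began 118 bases before the start and the CACCTG match, also on the opposite strand, 108 bases before it, with 4 bases between them. A TATAAA match began 44 bases before the Prss2 start. The Ctrc window held TATAAA 36 bases before the start and CACCTG from base 3 of the transcript, with no TTTCCC. The Spink1 window held TTTCCC 206 and 106 bases before the start and neither of the others. Of 33469 promoter windows of this length, 18.8% held CACCTG, 25.1% TTTCCC, 14.2% TATAAA, and 4.38% both CACCTG and TTTCCC. In all 8 patterns were searched, and the 3 in capitals were chosen after the matches were seen. Among the other 5, the E-box CAGCTG had no match in these windows and was held by 15.1% of all windows. The orphan receptor motif AAGGTCA (4.61% of windows) and its longer form TCAAGGTCA (0.433%) had none either. CATCTG (16.6%) had 1 match in Spink1. The general E-box CANNTG, which includes all the E-boxes named, was held by 72.1% and had 1 match in Prss2, 2 in Ctrc and 1 in Spink1. The source used here has no window for Prss3 or Try10. The windows of Prss1 and Try5, which had no probe, were searched for the 3 patterns in capitals. That of Try5 held CACCTG 106 bases before the start and no TTTCCC. That of Prss1 held CACCTG 181 bases before the start and TTTCCC 122 and 90 bases before it, so the spacing seen in Prss2 was not shared. Both held TATAAA, 44 bases before the start in Try5 and 32 in Prss1.

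The labels were set against marker genes of other cells. On the arrays labelled AP, S100a8, a calcium-binding protein of neutrophils, was at least 90.7-fold lower, Csf3r, the G-CSF receptor of neutrophils, at least 3.07-fold lower, and both were at background on all AP scans, that is, not marked as well above it by the scanner software. Of the list of neutrophil and monocyte genes, 2 of 8 tested were higher and 4 lower in AP by limma at an adjusted p below 0.05. The 2 higher were Ptprc (log2 fold change 2.62) and Csf1r (0.36). All 11 lymphoid genes tested were higher, and 7 of 9 adipocyte, 6 of 6 erythroid and 3 of 6 duct cell genes were lower. Neutrophil genes are usually high in an inflamed pancreas, which S100a8 and Csf3r were not on the arrays labelled AP. The labels could not be checked by these markers. An exchange of the 2 groups was not tested and cannot be told apart from other differences between them. Directions below follow the deposited labels, and an exchange would turn the sign of every fold change. The 75th percentile of the signal was 70.2 to 77.7 on the AP scans and 140.4 to 147.3 on the control scans, and no spot was saturated.

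Levels are given as log2 of the signal relative to the 75th percentile of all non-control probes of the same array. Of the 5 members, Prss2 and Try10 were higher in AP by limma with Benjamini-Hochberg adjustment over all 13215 probes, none was lower, and Prss3, Ctrc and Spink1 did not pass the threshold. Over all genes tested, 24.1% were called higher and 31.9% lower, 56.0% either way (26.9%, 28.2% and 55.1% of probes), so that 2 of 5 stands against a high background. No member was lower at an unadjusted p below 0.05 either. The median log2 fold change of the 5 members was 0.68, against -0.03 over all genes.

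**Figure D1:**
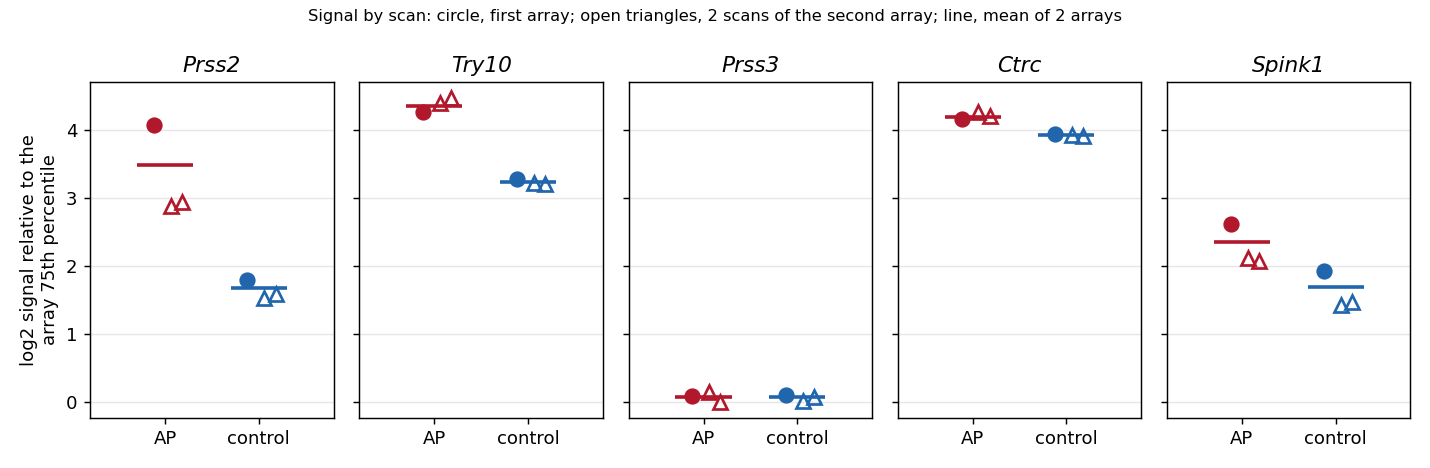
Log2 signal relative to the array's 75th percentile (vertical axis) for the 5 members on each scan, AP left and control right. Circles are the first array of a group, open triangles the 2 scans of the second array, and lines the mean of the 2 arrays; All AP scans lie above all control scans for Prss2, Try10, Ctrc and Spink1, and the Prss3 groups overlap.

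Prss2 encodes an anionic trypsinogen of the rat pancreas. Its level was 4.07 and 2.91 on the AP arrays, against 1.79 and 1.55 on the control arrays. The groups did not overlap, but the AP arrays lay further apart than any other pair of this set, with an SD of 0.82, against 0.17 in control. The mean was 3.49 in AP and 1.67 in control (n = 2 arrays each), a log2 fold change of 1.82 ± 0.44 (SE, limma adjusted p = 0.0346), or 3.53-fold. The 95% interval ran from 0.55 to 3.09, and 95.7% of genes had a lower fold change. The call was lost without the first control array (1.94, adjusted p = 0.114) and without the second (1.70, adjusted p = 0.149), where the lone control array was assumed to vary like the AP arrays. It was also lost with no filter on dim probes (adjusted p = 0.0616).

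Try10 encodes another trypsinogen of the family. Its level was 4.26 and 4.44 on the AP arrays, against 3.27 and 3.21 on the control arrays. Both AP arrays stood about 1 log2 unit above both control arrays, and the spread within a group was small, with an SD of 0.13 in AP and 0.05 in control. The log2 fold change was 1.11 ± 0.11 (SE, limma adjusted p = 0.00453), or 2.16-fold, with a 95% interval of 0.78 to 1.43. The call was lost with normexp background correction before the 75th percentile (0.74, adjusted p = 0.0652).

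Prss3 did not separate the groups. Its level was 0.08 and 0.07 on the AP arrays, against 0.11 and 0.04 on the control arrays, and the groups overlapped. The log2 fold change was 0.0015 ± 0.09 (SE, limma adjusted p = 0.990), with a 95% interval of -0.27 to 0.27, which lies below the whole interval of Try10.

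Ctrc was measured at 4.16 and 4.23 on the AP arrays, against 3.94 and 3.92 on the control arrays. Both AP arrays were above both control arrays, by a smaller distance than for Try10. The log2 fold change of 0.27 ± 0.09 (SE, limma adjusted p = 0.0846), or 1.20-fold, did not pass the threshold, and its 95% interval of -0.0048 to 0.54 just included 0.

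Spink1 was measured at 2.62 and 2.09 on the AP arrays, against 1.92 and 1.45 on the control arrays. Both AP arrays were above both control arrays, and the first array was the higher one in each group. The log2 fold change was 0.68 ± 0.28 (SE, limma adjusted p = 0.115), or 1.60-fold, which did not pass the threshold, with a 95% interval of -0.11 to 1.46. In 4 of the 5 members both AP arrays lay above both control arrays, against 37.0% of 8681 genes with a value on every array, and 42.8% of these genes had both AP arrays below.

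The direction of several members depended on the scaling, because the median log2 fold change over all genes was -0.03 after scaling and -0.99 without it. As deposited by the scanner software, the signal of Ctrc was 1385, 1347 and 1361 on the AP scans, against 2256, 2141 and 2190 on the control scans. The signal of Prss3 was 82.4, 77.4 and 73.6 on the AP scans, against 158.8, 141.6 and 153.1 on the control scans. Both were thus lower in AP before scaling, with log2 fold changes of -0.69 (limma adjusted p = 0.00708) for Ctrc and -0.96 (adjusted p = 0.00382) for Prss3. The signal of Spink1 was 479.0, 303.5 and 311.3 on the AP scans, against 557.0, 378.2 and 403.5 on the control scans, so that the unscaled groups overlapped (log2 fold change -0.28). Unscaled, Try10 had a signal of 1490, 1481 and 1644 on the AP scans, against 1424, 1306 and 1339 on the control scans. Prss2 had 1306, 516.7 and 564.8 on the AP scans, against 508.7, 404.1 and 436.9 on the control scans. These 2 trypsinogens were the members with higher signals on every AP scan, and neither passed the threshold without scaling (0.15, limma adjusted p = 0.303 for Try10, and 0.86, adjusted p = 0.182 for Prss2).

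A further scaling, chosen after seeing the data, subtracted the mean log2 level of the 21 acinar enzyme genes tested. On that scale Try10 was 0.58 higher in AP and passed the threshold, Prss2 was 1.29 higher (limma adjusted p = 0.0772), Spink1 0.15 higher, Ctrc differed by -0.26, and Prss3 fell by 0.53 (adjusted p = 0.0166). In bulk tissue, a change in the share of acinar cells and a change in RNA per acinar cell cannot be told apart.

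**Figure D2:**
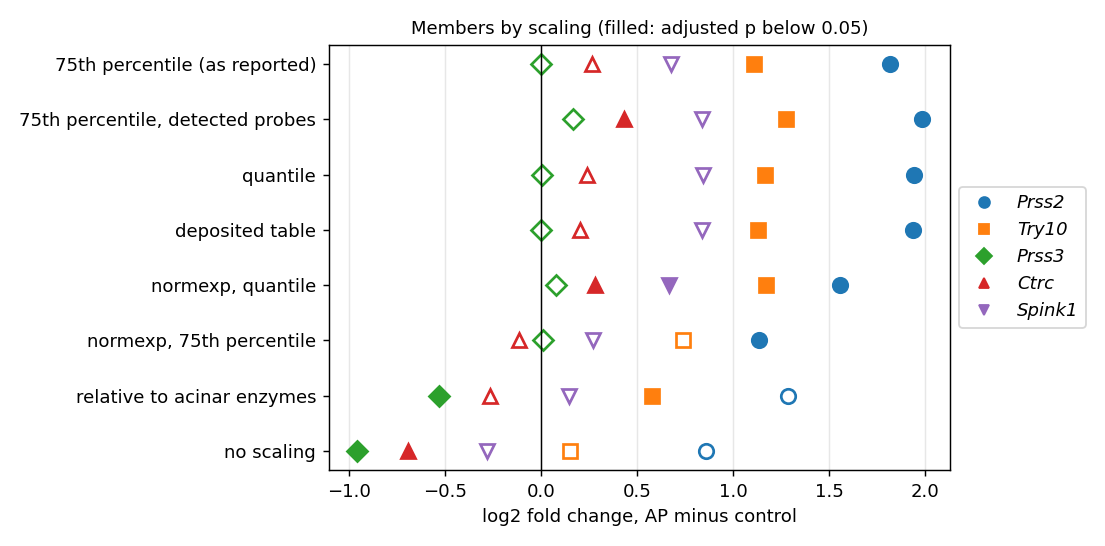
Log2 fold change, AP minus control (horizontal axis), of the 5 members under 8 scalings of the arrays; filled symbols passed an adjusted p of 0.05. Prss2 and Try10 stay right of 0 in all 8, Ctrc is left of 0 in 3, Prss3 in 2 and Spink1 without scaling, and Prss2 is not called relative to the acinar enzymes or without scaling.

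The ratio of a protease to its inhibitor within an array does not change when 1 constant per array is subtracted, as with the 75th percentile, but it can change with background correction or quantile normalization: that of Prss3 to Spink1 differed by -0.26 with normexp and the 75th percentile, against -0.67 as reported here. Its absolute value has no meaning between different probes, so only the shift between groups is read. The log2 ratio of Prss2 to Spink1 was 1.45 and 0.81 on the AP arrays, against -0.13 and 0.11 on the control arrays, a difference of 1.14. That of Prss3 to Spink1 was -2.54 and -2.03 in AP, against -1.81 and -1.41 in control, a difference of -0.67. Neither pair of groups overlapped, and each had an exact two-sided permutation p of 0.333, the smallest that 2 arrays against 2 can give. The ratios of Try10 and Ctrc to Spink1 differed by 0.43 and -0.41 with overlapping groups (exact permutation p = 0.667 each). The ratios to Ctrc, added after the values were seen, shifted by 1.55 for Prss2, 0.84 for Try10 and -0.27 for Prss3, without overlap. Over either denominator, the shift of Prss2 was opposite in sign to that of Prss3. Each shift equals the difference between the log2 fold changes of its 2 genes, so it adds no separate result. Prss3 itself changed by 0.0015, and its negative shifts restate the rises of Spink1 and Ctrc, which were not called. These 7 ratios share the arrays and their denominators, and the permutation test could not reach 0.05 with 2 arrays per group.

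**Figure D3:**
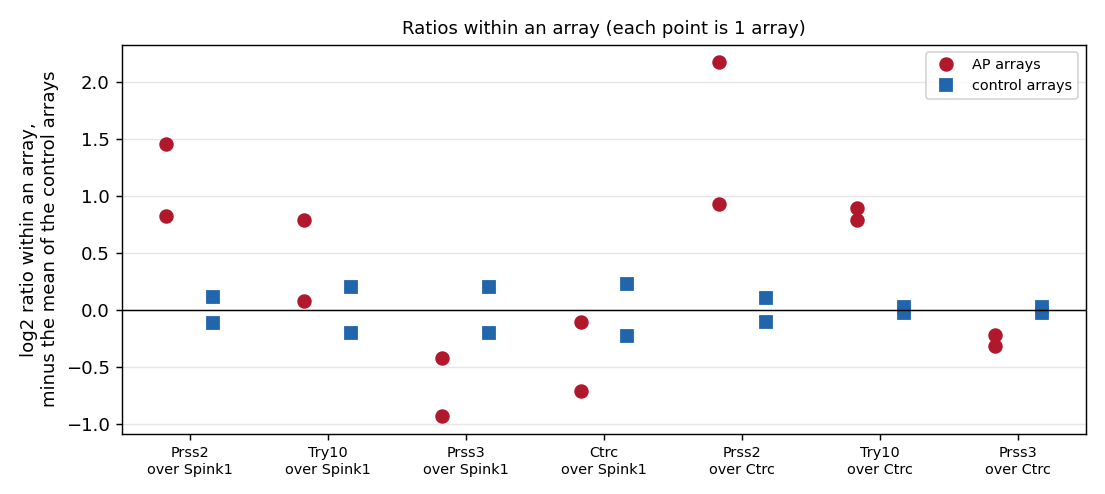
Log2 ratio of 2 members within an array, minus the mean of the control arrays (vertical axis), for 7 ratios, AP circles left of control squares; each point is 1 array. AP and control do not overlap for Prss2 and Prss3 over Spink1 and for the 3 ratios over Ctrc.

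3 further loci with related names were read beside the members after their values were seen. Prss3b, which carried the name Prss3 in older annotation, was measured at 3.24 and 3.16 on the AP arrays, against 2.98 and 3.08 on the control arrays (0.17 ± 0.10 SE, limma adjusted p = 0.239). Prss3bl1 was measured at 0.99 and 1.34 in AP, against -0.06 and -0.0026 in control, and was called higher (1.20 ± 0.16 SE, adjusted p = 0.00777). That call was lost in 3 of 22 alternative settings, over which the log2 fold change ran from 0.24 to 1.37. Spink1l, a Spink1 copy, was measured at 2.70 and 2.26 in AP, against 2.07 and 1.14 in control (0.87 ± 0.39 SE, adjusted p = 0.136). As for Prss2 and Spink1, the first array was the higher one in each group. The promoter window of Spink1l shared 287 of 289 aligned bases (99.3%) with that of Spink1. Probe sequences were not used here, and how far the probes of such near copies also bind each other's RNA was not tested, so the values of single trypsinogen and Spink1 genes are uncertain to that extent.

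A trypsin pathway list held 30 other genes: proteases, inhibitors and receptors, but also calcium sensors, channels and others that do not act on trypsin itself. Of these, 18 were tested, and 7 were higher and 7 lower in AP, against 24.1% higher and 31.9% lower over all genes. Without scaling between arrays 2 were higher and 10 lower, in a setting where 768 probes were higher and 7796 lower over all. The median log2 fold change of the 18 genes was 0.16. Among the lysosomal proteases, cathepsin B (Ctsb), which can activate trypsinogen, was measured at 8.17 and 8.24 on the AP arrays, against 8.35 and 8.28 on the control arrays, and did not pass the threshold (-0.11 ± 0.10 SE, limma adjusted p = 0.388). Cathepsin L (Ctsl), which can inactivate trypsinogen, was lower, with a log2 fold change of -1.83 (adjusted p = 0.0029). Cathepsin D (Ctsd), which processes cathepsin B, was also lower (-3.15, adjusted p = 0.00069), as was the asparaginyl protease Lgmn (-1.52).

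Of the substrates and receptors, chymotrypsinogen B (Ctrb1) was higher by 1.08 (limma adjusted p = 0.00303). Ctrb1 was not called higher without scaling, and its lowest log2 fold change over 22 alternative settings was 0.12. The trypsin receptor F2rl1 (PAR2) was higher by 0.79 (limma adjusted p = 0.0139), though without scaling F2rl1 differed by -0.16. No probe was matched to Ctrl. Among calcium sensors and channels, Casr was higher (2.17) and Trpv4 lower (-1.58). The protease inhibitor A2m was higher by 1.75 (adjusted p = 0.0013). Tfpi2, a Kunitz inhibitor that blocks trypsin, was at least 7.35-fold lower and at background on all AP scans, and Anxa2, a calcium-dependent membrane protein, was lower (-3.69). Enteropeptidase (Tmprss15), Ambp, Spink2, Spink8 and Cftr were at background on all 6 scans.

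Of the other acinar enzymes, 12 of 21 tested were higher in AP, 2 were lower and 7 did not pass the threshold, with a median log2 fold change of 0.56, beside the 0.68 of the 5 members. Without scaling between arrays 0 of them were higher, also at an unadjusted limma p below 0.05, and 10 were lower. Erp27, Klk1, Cpb1 and Dnase1 had the largest changes among those called, at 1.67, 1.26, 1.22 and 1.12, and amylase (Amy2a3) was higher by 1.09. Carboxypeptidase A1 (Cpa1) was higher by 0.80 and the lipase Cel by 0.90 on this scale, but without scaling they differed by -0.15 and -0.058. Of the regulators of acinar genes, Bhlha15 (Mist1), which maintains the secretory state, was higher by 2.05 (limma adjusted p = 0.0014), and Xbp1, a factor of the unfolded protein response, was lower (-1.30, adjusted p = 0.00516). Ptf1a and Rbpjl, subunits of the PTF1 complex, and Nr5a2 were at background on all 6 scans.

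**Figure D4:**
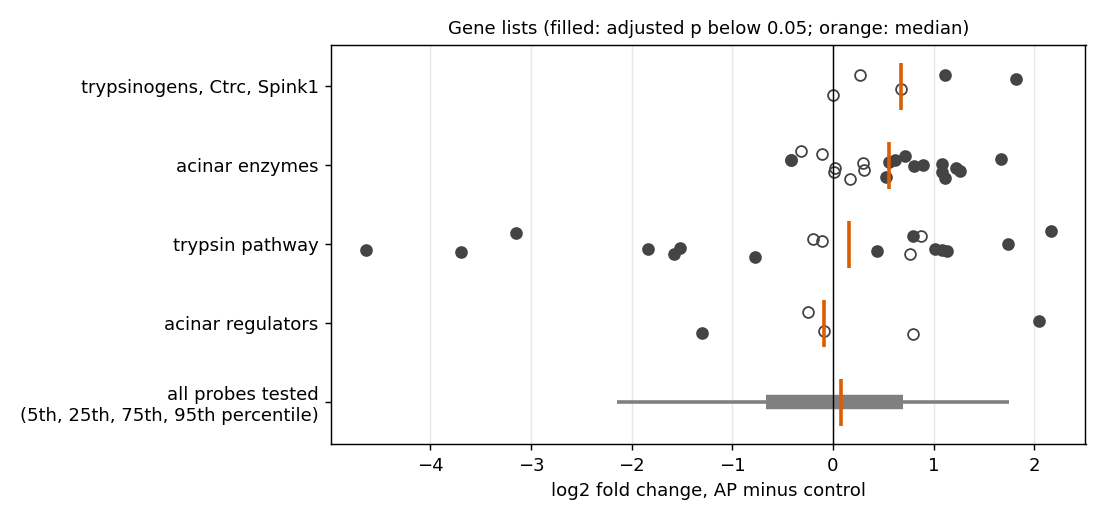
Log2 fold change, AP minus control (horizontal axis), of each tested gene in the member, acinar enzyme, pathway and regulator lists (rows), with the 5th, 25th, 75th and 95th percentiles of all probes tested in the last row; filled points passed an adjusted p of 0.05 and orange lines are medians. Medians are 0.68 for the members, 0.56 for the acinar enzymes and 0.16 for the pathway, and the leftmost pathway point is the fitted value of Tfpi2, for which only a bound on the fold was measured.

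Markers of several other cell types differed between the groups, and not all lists moved 1 way. Of 5 islet genes tested, 1 was higher (Slc30a8), 2 were lower (Ins1 and Ins2) and 2 were not called. The log2 of the summed scaled signal of the 11 lymphoid genes was 7.01 and 6.84 on the AP arrays, against 2.15 and 1.90 on the control arrays, and Cd79b and Tnfrsf17 were at background on all control scans. For the 9 adipocyte genes it was 4.13 and 4.12 in AP, against 8.84 and 8.85 in control, and for the 6 erythroid genes 4.87 and 4.90 in AP, against 9.33 and 9.54 in control. For the 21 acinar enzymes it was 6.90 and 6.90 in AP, against 6.66 and 6.70 in control. Such sums mostly follow the brightest genes of a list. Hbb alone was 4.73 and 4.77 in AP, against 9.27 and 9.48 in control. Ccl21 alone was 6.47 and 6.18 in AP, against 0.07 and 0.12 in control. The part of these marker shifts in the values of the trypsinogens, Ctrc and Spink1 was not tested. Nor was it tested for the pathway genes, the other acinar enzymes or the regulators such as Bhlha15.

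The genes whose profiles lay nearest to each member were found among 8681 genes by the root mean square distance of log2 levels, centred on each gene's mean, over the 4 arrays. For Prss2 they were Tmed6, Acaa1b and Tspan33, at distances of 0.177 to 0.208, the widest of any member. Lama3, C1h19orf47 and Nfatc3 lay nearest to Try10 at 0.0114 to 0.0213, and Slc10a7, Tmem41b and Rab35 nearest to Ctrc at 0.0091 to 0.0112. For Spink1 they were Sesn2, Sephs2 and Vom2r15, at 0.0412 to 0.0613, and for Prss3 C4h2orf42, Pcbp2 and Tpi1, at 0.00946 to 0.0168. With 4 arrays many genes share a profile by the group difference alone, and none of the nearest genes belonged to the lists above.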

How the data were processed

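In the scanner tables the authors deposited, values are spot intensities after background subtraction by Agilent Feature Extraction 11.0.1.1, per the submitters' processing notes, with no scaling between arrays, and the design was annotated on rn4, per the file headers. The deposited normalized table holds log2 values, by a method not given in the sources used here. Control spots and spots with outlier marks were left out, spots of a probe were averaged, and the array's 75th percentile was subtracted. A probe had to be well above background, by the scanner software's mark, on 3 or more of the 6 scans, and a probe or gene without that mark is called at background. limma 3.58.1 in R 4.3.3 (lmFit, eBayes, 2 residual degrees of freedom, two-sided) tested AP against control, adjusted by Benjamini and Hochberg over 13215 probes, and the brightest probe stood for a gene.

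Scans whose spot deviations correlated above 0.9, over probes with a signal above 200 on every scan, were taken as 1 array. The selection was changed after its first result, which used the mean signal over the scans (938 probes) and gave r = 0.924 for the AP pair and 0.936 for the control pair, and the same 4 arrays. The labels number the replicates and say that RNA was extracted from each rat, and p-values measure the spread between these arrays, whose small number limits the precision. Scans 1 and 2 of each group shared a scan session and scan 3 belonged to another, so session does not separate the groups. The array position in the header barcode does: it was 1 and 2 for the control arrays, and 3 and 4 for the AP arrays. An effect of this position cannot be told apart from the group difference.

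Of 24684 probes, 14294 were named through current RefSeq genes (assembly GRCr8) by unversioned accession. The fold of a probe at background throughout a group is a bound, set by the larger of its own signal and the lowest marked signal of each array. Up to 8 called genes with the largest change were eligible per list, up to 3 per cell type list, with Ctsb, Ctsl, F2rl1, Ctrb1 and Ctrl whatever their result, and the 3 nearest profiles per member. The members and lists were chosen with earlier results of these data known. Genes named as at background, the related loci and the ratios to Ctrc were picked with their values already known. The fit was tested on simulated data. 22 alternatives were planned and 1 was added.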

Additional observations from a re-analysis of the deposited data

How the results depend on the processing

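Try10 and Prss2 were higher in AP under all 23 alternative settings, and the changes in calls included the following (p below is limma's adjusted p). Without scaling between arrays, Prss2 differed by 0.86 (adjusted p = 0.182) and Try10 by 0.15 (adjusted p = 0.303), Ctrc by -0.69 (adjusted p = 0.00708), Prss3 by -0.96 (adjusted p = 0.00382), Prss3b by -0.79, F2rl1 by -0.16, Cpa1 by -0.15 and Cel by -0.058. In that setting 768 probes were higher and 7796 lower, against 3555 and 3728 as reported; no member was higher, nor at an unadjusted p below 0.05 (0), and 2 were lower. The pathway list then had 2 higher and 10 lower, and the acinar list 0 higher (0 unadjusted) and 10 lower. With normexp and the 75th percentile, 929 probes were higher and 1718 lower, Try10 differed by 0.74 (adjusted p = 0.0652), 1 member, 2 pathway genes and 1 acinar enzyme were higher and 0 acinar enzymes lower (2 at an unadjusted p below 0.05), and the Prss3 to Spink1 ratio differed by -0.26. With no filter on dim probes, 6800 probes were higher, Prss2 differed by 1.82 (adjusted p = 0.0616), and 1 member was higher. Relative to the acinar enzymes, a scaling chosen after seeing the data, Prss2 differed by 1.29 (adjusted p = 0.0772) and Prss3 by -0.53 (adjusted p = 0.0166), with 1 member higher and 1 lower. On that scale 6 acinar enzymes were also called higher and 6 lower. The scale subtracts the mean of these same enzymes, so changes in both directions were built in and are no separate result.

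Ctrc and Spink1, not called as reported, passed the threshold in some settings. Ctrc did so with 6 scans as separate replicates (0.28, adjusted p = 0.00386), with scan session as a block on 6 scans (0.28, adjusted p = 0.0128), with the percentile over probes detected on all scans (0.43, adjusted p = 0.0315), with normexp and quantile normalization (0.28, adjusted p = 0.0238) and with a robust variance trend (0.27, adjusted p = 0.0404). Spink1 did so with 6 scans (0.67, adjusted p = 0.0286), the session block (0.67, adjusted p = 0.0354) and normexp with quantile normalization (0.67, adjusted p = 0.0160). Treating 6 scans as replicates counts 1 array as 2 samples. With 6 scans, the session block, and normexp with quantile normalization, 4 members each were called higher. Over all probes, 5029, 4715 and 3241 were called higher in these 3 settings, against 3555 as reported. The 2 acinar enzymes called lower became 1 with quantile normalization and with the deposited table, and 0 with the percentile over detected probes, normexp with quantile normalization, no filter, or the replicate block.

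The labels number the replicates alike in both groups without saying that a number pairs rats. Deviations of same-numbered arrays from their group means correlated at -0.21 across 13149 probes. With the replicate number as a block, Spink1 was called (0.68, adjusted p = 0.0406) and 0 acinar enzymes were lower; the cause was not tested.

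Leaving out each scan or array in turn gave log2 fold changes of 1.24 to 2.40 for Prss2, 1.02 to 1.20 for Try10, 0.23 to 0.31 for Ctrc, 0.41 to 0.94 for Spink1 and -0.04 to 0.04 for Prss3. Members called higher numbered 1 to 2, pathway genes called higher 4 to 7, acinar enzymes called higher 6 to 12 and lower 0 to 2, and probes called higher 2119 to 3557. Prss2 lost its call without the first control array (1.94, adjusted p = 0.114) and without the second (1.70, adjusted p = 0.149). The precision is limited by the 2 arrays per group.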
